A study of Mus musculus with 19 samples.

Results

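8 genes of catecholamine signalling were examined in mouse kidney, 6 adrenergic receptors and 2 enzymes. The receptors were Adra1a, Adra1b and Adra1d of the alpha-1 type, Adra2a and Adra2b of the alpha-2 type, and Adrb1, the beta-1 receptor. The enzymes were Ddc and Maoa. The genes were taken by symbol from a count table of 40413 genes. All 8 were found, and all 8 passed the filter on low counts that left 16421 genes to test. Polyadenylated kidney RNA had been sequenced from adult mice of the BPH/2J and BPN/3J strains, 1 library per animal code. Hypertensive BPH/2J mice given Cmpd17b numbered 4 in the fit, and BPH/2J mice given vehicle numbered 5. Normotensive BPN/3J mice given Cmpd17b numbered 5, and BPN/3J mice given vehicle numbered 4. Cmpd17b is a small molecule that activates formylpeptide receptors, and mice were injected once a day for 28 days, at 50 mg/kg per day in the treated groups. A 5th library labelled as a treated BPH/2J kidney was left out of the fit and is described at the end. The strains were bred apart for high and for normal blood pressure, so blood pressure and genetic background cannot be told apart in a strain comparison.

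Noradrenaline from sympathetic nerves reaches smooth muscle, renin-secreting cells and tubule cells of the kidney through these receptors. Alpha-1 receptors act through Gq and calcium, alpha-2 receptors lower cyclic AMP through Gi, and beta-1 receptors raise it through Gs and drive renin release. Ddc, which encodes aromatic L-amino acid decarboxylase, makes dopamine from filtered L-DOPA in the proximal tubule, where dopamine promotes sodium excretion, and Maoa, which encodes monoamine oxidase A, breaks down noradrenaline, dopamine and serotonin. Hypertension in BPH/2J mice is known as a neurogenic form, with high sympathetic activity.

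The 18 libraries in the fit held between 21400111 and 40998650 counts. All 10 proximal tubule markers were detected in every group. The heart muscle markers summed to between 131 and 188 CPM (counts scaled to a common library total with TMM factors) in treated BPH/2J mice and to at most 12.1 CPM in the other groups. The mitochondrial share of counts ran from 16.6% to 26.6% in treated BPH/2J, 16.0% to 21.7% in vehicle BPH/2J, 12.8% to 14.97% in treated BPN/3J and 13.2% to 16.3% in vehicle BPN/3J libraries, and the part of this difference in the results below was not tested. BPH/2J Cmpd17b replicate 5 had the lowest total count and the highest mitochondrial share of the 18.

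The strains differed in 2 of the 8 genes in each treatment arm. Ddc and Adra2b were lower in BPH/2J than in BPN/3J kidneys, with Cmpd17b and with vehicle. Called genes had an adjusted p under 0.05 in edgeR's quasi-likelihood test with Benjamini-Hochberg adjustment over all tested genes. Under Cmpd17b, 0 of the 8 were called higher and 2 lower, where 5.71% of all tested genes were called higher and 4.65% lower, 10.4% in all. Under vehicle the counts were again 0 and 2, where 5.82% of all tested genes were called higher and 4.94% lower, 10.8% in all. Averaged over both arms, 2 were called higher (Adra2a and Maoa) and 3 lower (Ddc, Adra2b and Adrb1), where 13.2% of all tested genes were called higher and 10.4% lower, 23.6% in all. DESeq2 called 3, 2 and 6 of the 8 under Cmpd17b, under vehicle and on average, where it called 13.7%, 14.3% and 27.6% of all genes. Limma-voom called 2, 2 and 4 of the 8, where it called 9.58%, 11.3% and 22.7% of all genes. The averaged comparison uses the libraries of both arms and is not independent of either. The median log2 fold change of the 8 genes, BPH/2J over BPN/3J, was -0.12 under Cmpd17b, -0.41 under vehicle and -0.24 on average, beside 0.01, 0.04 and 0.03 over all tested genes. With 8 genes, nothing particular to the set is read from these counts. In whole kidney, fewer cells of a type and less RNA per cell cannot be told apart.

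**Figure D1:**
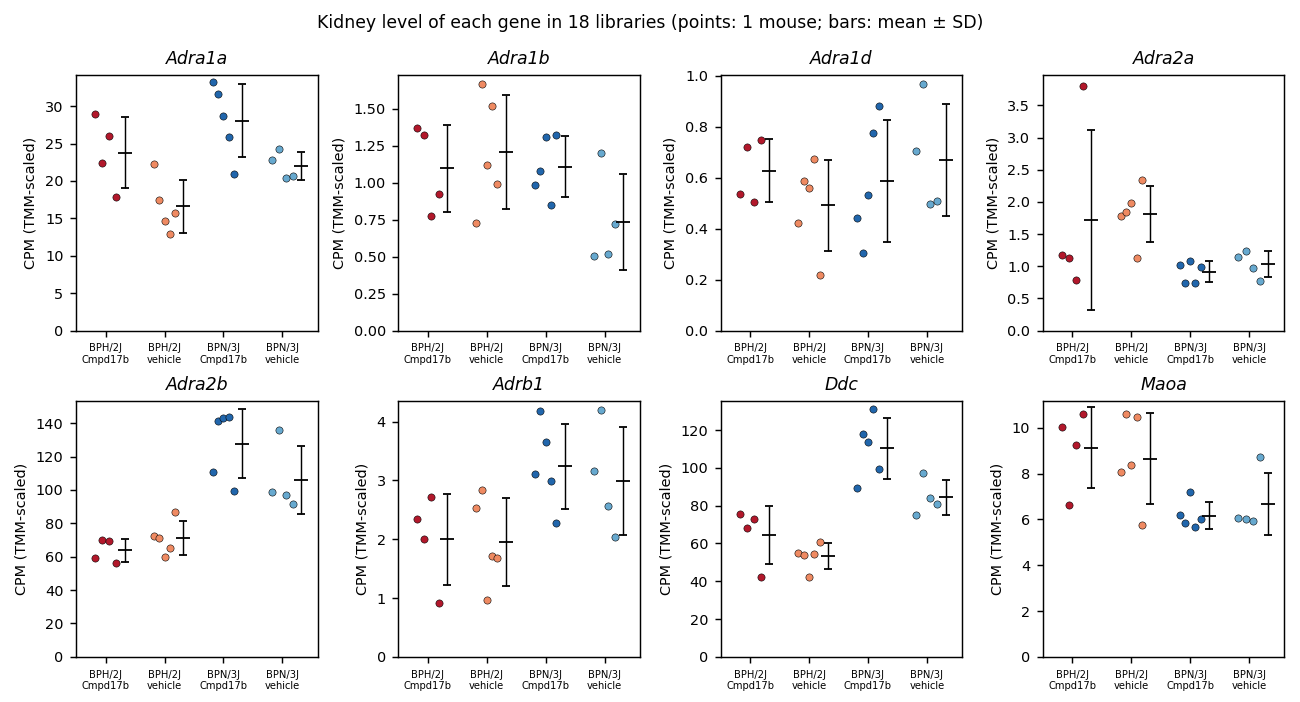
Level of each of the 8 genes in CPM (TMM-scaled, linear axis from 0) in 4 groups; each point is 1 mouse and the bars are mean ± SD. For Adra2b and Ddc the BPH/2J points lie below the BPN/3J points within each arm, whereas for the other 6 genes the groups overlap.

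Ddc had a higher level than Maoa, also per kilobase. In the treated arm Ddc stood at 75.4, 67.9, 73.04 and 42.2 CPM in the BPH/2J mice, against 89.4, 118, 114, 131 and 99.6 CPM in the BPN/3J mice. In the vehicle arm it stood at 55.2, 53.8, 42.3, 54.6 and 60.6 CPM in BPH/2J, against 75.2, 97.3, 84.1 and 80.8 CPM in BPN/3J. Every BPH/2J mouse was below every BPN/3J mouse of its arm. Across arms the highest BPH/2J value, 75.4 CPM in a treated mouse, just passed the lowest BPN/3J value, 75.2 CPM in a vehicle mouse. The log2 fold change, BPH/2J over BPN/3J, was -0.77 under Cmpd17b (SE 0.16, edgeR adjusted p 0.00292) and -0.66 under vehicle (SE 0.15, edgeR adjusted p 0.00852). Ranges of the compared groups did not overlap for 2 of the 8 genes, Ddc and Adra2b, in either arm, where 12.8% of all tested genes showed this under Cmpd17b and 13.6% under vehicle. Ddc stayed called in each of the 18 refits that left out 1 library.

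Ddc lies on chromosome 11, and RefSeq (GRCm38.p6) gives 2 start sites for it, on the minus strand. The 250 bases before each start are shown because Ddc had the lowest adjusted p of the 8 genes under vehicle, and they can be read beside those of Adra2b, which was lower in the same groups. The upstream window is chr11:11898145-11898394 and the downstream window chr11:11890409-11890658. Capitals mark letters that were searched for, on either strand. The upstream window holds TTAAT and TTAAC set 2 bases apart, beginning 52 bases before the start site. Hepatocyte nuclear factor 1 binds letters like these. The window also holds the letters of a TATA box (TATAAA) 68 bases before the start, but on the opposite strand, so they are printed as TTTATA. The downstream window holds a CCAAT box 55 bases before its start. The hepatocyte nuclear factor letters were chosen after the window had been read, and 0.143% of 32851 windows of this length hold them. The count table gives 1 value per gene, so it does not show which start was used.
Ddc upstream start: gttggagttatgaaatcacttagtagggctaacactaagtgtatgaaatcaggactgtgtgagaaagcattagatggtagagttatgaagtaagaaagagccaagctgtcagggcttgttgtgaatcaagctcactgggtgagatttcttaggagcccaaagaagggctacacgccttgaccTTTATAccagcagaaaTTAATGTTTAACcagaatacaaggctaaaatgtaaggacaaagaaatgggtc
Ddc downstream start: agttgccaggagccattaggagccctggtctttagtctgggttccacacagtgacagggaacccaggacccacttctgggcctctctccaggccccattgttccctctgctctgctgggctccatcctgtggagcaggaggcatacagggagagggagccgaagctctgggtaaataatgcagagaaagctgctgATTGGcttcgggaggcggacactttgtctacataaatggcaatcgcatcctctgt

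Maoa ran the other way, with higher values in most BPH/2J mice. Under Cmpd17b Maoa was at 10.04, 6.62, 9.27 and 10.6 CPM in BPH/2J mice, against 6.18, 5.84, 7.17, 5.65 and 6.01 CPM in BPN/3J mice. Under vehicle it was at 8.07, 10.6, 8.36, 10.5 and 5.75 CPM in BPH/2J mice, against 6.05, 6.04, 5.92 and 8.71 CPM in BPN/3J mice. Under Cmpd17b 3 of the 4 BPH/2J mice lay above all BPN/3J mice. Under vehicle 2 of the 5 did, and replicate 5 lay below the BPN/3J range. Averaged over both arms the log2 fold change was 0.47 (SE 0.13, edgeR adjusted p 0.0133), and Maoa stayed called in each of the 18 refits that left out 1 library. In single arms it was not called, at 0.56 under Cmpd17b (edgeR adjusted p 0.0578) and 0.38 under vehicle (edgeR adjusted p 0.222). The Cmpd17b value passed the threshold in DESeq2 (adjusted p 0.0327) and in edgeR without BPH/2J Cmpd17b replicate 3 (0.69), BPH/2J vehicle replicate 5 (0.56) or BPN/3J vehicle replicate 4 (0.56). Counts of Ddc per count of Maoa ran from 3.98 to 10.5 in the 9 BPH/2J mice and from 9.28 to 23.2 in the 9 BPN/3J mice, with means of 6.93 ± 2.34 and 15.8 ± 4.08 (SD, n = 9 each).

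Maoa lies on the X chromosome. Its window in RefSeq (GRCm38.p6), chrX:16619448-16619697 on the plus strand, is shown because Maoa differed between the strains in the opposite direction to Ddc. It holds 1 GC box (GGGCGG) that begins 46 bases before the start, and none of the other 6 motifs searched. GC boxes occur in 32.7% of all windows.
Maoa: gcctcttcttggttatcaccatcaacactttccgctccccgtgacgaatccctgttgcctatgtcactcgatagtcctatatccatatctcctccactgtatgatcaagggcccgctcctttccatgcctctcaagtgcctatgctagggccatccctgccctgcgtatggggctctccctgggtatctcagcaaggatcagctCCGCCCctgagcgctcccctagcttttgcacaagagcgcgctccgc

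Adra2b, an alpha-2 receptor found mainly in the proximal tubule in rodent kidney, gave the largest strain difference under Cmpd17b among the 8 genes in size. In the treated arm Adra2b was at 59.1, 70.3, 69.1 and 56.5 CPM in BPH/2J mice and at 111, 142, 143, 144 and 99.6 CPM in BPN/3J mice. With vehicle the values were 72.4, 71.4, 59.9, 64.9 and 86.8 CPM in BPH/2J mice and 98.4, 136, 96.9 and 91.6 CPM in BPN/3J mice. All 9 BPH/2J mice were below all 9 BPN/3J mice, at most 86.8 CPM against at least 91.6 CPM. Among the 8 genes Adra2b alone separated the strains across both arms, where 5.75% of all tested genes did so. The log2 fold change was -1.003 under Cmpd17b (SE 0.15, edgeR adjusted p 0.000131) and -0.57 under vehicle (SE 0.14, edgeR adjusted p 0.0140). The vehicle call rested on BPN/3J vehicle replicate 2, without which the log2 fold change was -0.43 (edgeR adjusted p 0.0772).

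Adra2a, the alpha-2 receptor that restrains noradrenaline release from nerve endings, was higher in BPH/2J at a level near 1 CPM. In the treated arm it was at 1.17, 1.14, 0.779 and 3.81 CPM in BPH/2J and 1.01, 0.747, 1.09, 0.739 and 0.985 CPM in BPN/3J mice. In the vehicle arm it was at 1.78, 1.85, 1.98, 1.12 and 2.34 CPM in BPH/2J and 1.14, 1.23, 0.966 and 0.777 CPM in BPN/3J mice. The groups overlapped in both arms, and the value of 3.81 CPM came from BPH/2J Cmpd17b replicate 5, which also had the highest podocyte (261 CPM) and vascular smooth muscle (286 CPM) marker sums of the 18 libraries. The averaged log2 fold change was 0.85 (SE 0.26, edgeR adjusted p 0.0247). Without that library it was 0.49 (edgeR adjusted p 0.0620), and limma-voom gave 0.65 with an adjusted p of 0.0573. In single arms Adra2a was not called, at 0.88 under Cmpd17b (edgeR adjusted p 0.148) and 0.81 under vehicle (edgeR adjusted p 0.184). Leaving out the same library brought the vehicle value of 0.81 past the threshold (edgeR adjusted p 0.0314) and took the Cmpd17b value to 0.17.

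The windows of both alpha-2 genes in RefSeq (GRCm38.p6) are shown because the receptors differed between the strains in opposite directions. The Adra2b window is chr2:127362929-127363178 and the Adra2a window chr19:54045009-54045258, both on the plus strand. Adra2b carries GC boxes that begin 67 and 38 bases before its start and a CCAAT box at 32 bases, and no TATA box. Adra2a carries a TATA box 29 bases before its start, an E-box (CACGTG) at 80 bases and a GC box at 102 bases. TATA boxes occur in 12.4%, CCAAT boxes in 33.8% and E-boxes in 6.02% of all windows. The cyclic AMP response element TGACGTCA (1.55% of windows) and the letters CAAAGTCCA, like those bound by hepatocyte nuclear factor 4 (0.384% of windows), were in none of the 8 windows of the 6 genes that have one. No 2 matches in the printed windows share a base.
Adra2b: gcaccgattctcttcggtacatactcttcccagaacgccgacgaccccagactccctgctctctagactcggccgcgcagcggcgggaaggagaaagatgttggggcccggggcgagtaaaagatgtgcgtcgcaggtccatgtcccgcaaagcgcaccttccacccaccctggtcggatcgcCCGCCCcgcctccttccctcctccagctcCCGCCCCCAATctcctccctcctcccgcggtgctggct
Adra2a: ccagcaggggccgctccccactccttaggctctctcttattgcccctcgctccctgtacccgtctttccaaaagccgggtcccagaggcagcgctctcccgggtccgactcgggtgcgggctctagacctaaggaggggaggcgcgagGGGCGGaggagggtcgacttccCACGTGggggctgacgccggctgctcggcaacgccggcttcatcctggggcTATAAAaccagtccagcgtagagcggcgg

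Adra2b dominated the alpha-2 receptors in both strains. Per kilobase of merged exons, it made up 93.5 to 97.9% of the summed level of Adra2a, Adra2b and Adra2c in BPH/2J mice and 98.01 to 99.2% in BPN/3J mice. The strains did not overlap in this share, and their means were 96.6 ± 1.33% in BPH/2J and 98.6 ± 0.443% in BPN/3J (SD, n = 9 each). Counts of Adra2b per count of Adra2a averaged 46.7 ± 21.2 in BPH/2J and 127 ± 39.1 in BPN/3J (SD, n = 9 each). The highest BPH/2J ratio, 88.8, passed the lowest BPN/3J ratio, 86.1.

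Among the alpha-1 receptors, which constrict renal vessels, Adra1a had the highest level, also per kilobase. Under Cmpd17b it was at 28.9, 22.4, 26.01 and 17.9 CPM in BPH/2J mice, against 33.2, 31.6, 28.6, 25.8 and 20.98 CPM in BPN/3J mice. Under vehicle it was at 22.3, 17.4, 14.7, 12.9 and 15.7 CPM in BPH/2J mice, against 22.8, 24.3, 20.4 and 20.6 CPM in BPN/3J mice. Under vehicle 4 of the 5 BPH/2J mice lay below all BPN/3J mice, and under Cmpd17b the groups overlapped widely. The log2 fold change was -0.24 under Cmpd17b (edgeR adjusted p 0.408), -0.41 under vehicle (edgeR adjusted p 0.132) and -0.32 on average (SE 0.12, edgeR adjusted p 0.0542). None of these was called. The averaged value was called by DESeq2 (adjusted p 0.0325), by edgeR with DESeq2 size factors, and in edgeR without BPH/2J Cmpd17b replicate 2 (-0.38), BPH/2J vehicle replicate 1 (-0.39) or BPN/3J Cmpd17b replicate 5 (-0.37). Without BPH/2J vehicle replicate 1 the vehicle value was -0.54 and was called too (edgeR adjusted p 0.0321).

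Adra1b and Adra1d were near or below 1 CPM in every group, on 15 to 57 and 5 to 33 counts per library. Adra1b averaged 1.10 ± 0.294 CPM in treated BPH/2J (n = 4), 1.21 ± 0.386 CPM in vehicle BPH/2J (n = 5), 1.11 ± 0.207 CPM in treated BPN/3J (n = 5) and 0.737 ± 0.326 CPM in vehicle BPN/3J mice (n = 4). Its log2 strain difference had an interval of -0.67 to 0.65 under Cmpd17b and 0.05 to 1.38 under vehicle, with edgeR adjusted p of 0.992 and 0.175. Adra1d averaged 0.627 ± 0.124 CPM in treated BPH/2J, 0.492 ± 0.179 CPM in vehicle BPH/2J, 0.587 ± 0.238 CPM in treated BPN/3J and 0.669 ± 0.221 CPM in vehicle BPN/3J mice. Its interval was -0.69 to 0.88 under Cmpd17b and -1.19 to 0.35 under vehicle. Neither gene was called in either arm. The Adra1b interval under vehicle left out 0 (unadjusted p 0.0372 in edgeR), and the other 3 held 0. At these counts the intervals were wide, and a lack of a call does not show that the strains were equal. Adra1a made up 81.3 ± 6.16% of the summed alpha-1 level per kilobase in BPH/2J and 85.7 ± 4.12% in BPN/3J (SD, n = 9 each), and the strains overlapped.

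Adrb1, the receptor through which sympathetic nerves drive renin release, was lower in BPH/2J when the arms were averaged. In the treated arm it was at 2.34, 2.01, 2.73 and 0.923 CPM in BPH/2J mice, against 3.11, 4.18, 3.66, 2.99 and 2.27 CPM in BPN/3J mice. In the vehicle arm it was at 2.54, 2.84, 0.970, 1.72 and 1.69 CPM in BPH/2J mice, against 3.16, 4.19, 2.57 and 2.04 CPM in BPN/3J mice. The groups overlapped in both arms, on 16 to 151 counts per library. The averaged log2 fold change was -0.65 (SE 0.23, edgeR adjusted p 0.0452), with -0.68 under Cmpd17b (edgeR adjusted p 0.202) and -0.61 under vehicle (edgeR adjusted p 0.253). The averaged call was kept in 6 of 18 refits. It was lost, at -0.68 to -0.53 with adjusted p up to 0.108, without treated BPH/2J replicate 3 or 5, vehicle BPH/2J replicate 3, 4 or 5, treated BPN/3J replicate 1, 2, 3 or 4, or vehicle BPN/3J replicate 1, 2 or 3. It was also lost without the filter on low counts and with upper-quartile scaling. Of the 2 markers of juxtaglomerular cells, which release renin, 0 were called higher and 1 lower (Ren1) on average and under vehicle, and 0 under Cmpd17b. Their sum ran from 85.9 to 179 CPM in treated BPH/2J and from 83.1 to 179 CPM in treated BPN/3J, and from 33.8 to 106 CPM in vehicle BPH/2J and from 136 to 171 CPM in vehicle BPN/3J mice. Their part in the Adrb1 difference was not tested.

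**Figure D2:**
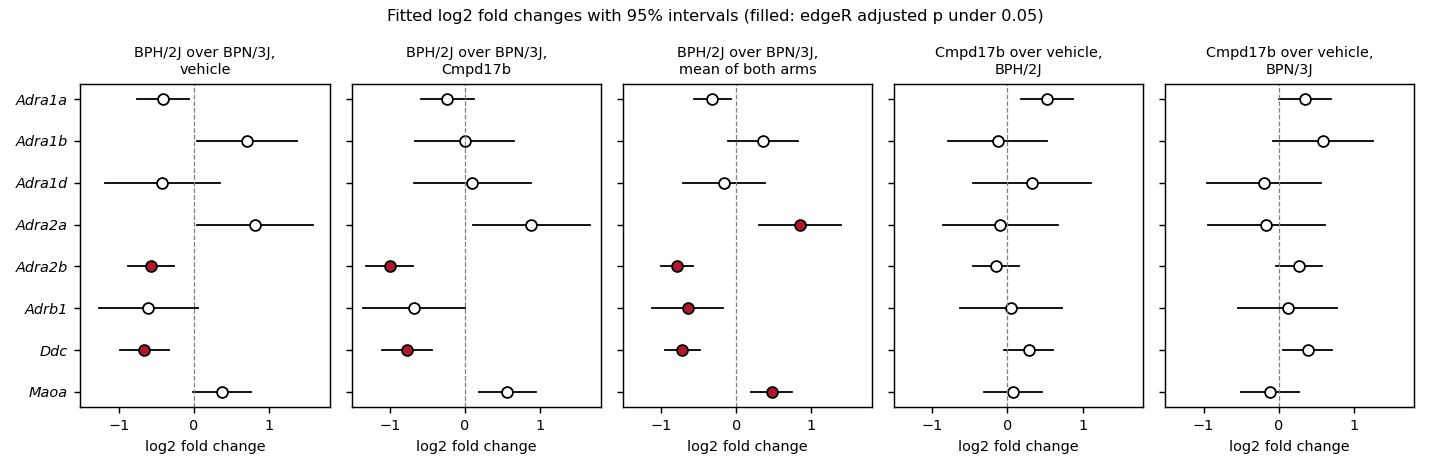
Fitted log2 fold changes of the 8 genes (points) with 95% intervals (lines) in 5 comparisons, from 1 edgeR fit of 18 libraries; filled points had an adjusted p under 0.05. Filled points are Ddc and Adra2b in each strain panel, with Adra2a, Adrb1 and Maoa added in the averaged panel, and none in the Cmpd17b panels.

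Ranked by level per kilobase of merged exons (GENCODE gene models of an earlier build), the 8 genes fell into a steep order. Ddc was at 27.9 ± 5.77 CPM per kb in BPH/2J and 47.2 ± 8.97 CPM per kb in BPN/3J, and Adra2b at 16.9 ± 2.29 and 29.4 ± 5.63 CPM per kb in BPH/2J and BPN/3J (SD, n = 9 each). Adra1a followed at 2.89 ± 0.789 and 3.70 ± 0.703 CPM per kb in the same order, then Maoa at 2.13 ± 0.431 and 1.53 ± 0.232 and Adrb1 at 0.668 ± 0.241 and 1.06 ± 0.261 CPM per kb. Neighbours in that order had ranges that did not overlap, except Ddc and Adra2b in BPH/2J, Adra1a and Maoa in BPH/2J, and Maoa and Adrb1 in BPN/3J. Adra2a, Adra1b, Adra1d, Adra2c and Adrb3 had means of 0.123 to 0.384 CPM per kb in both strains, and their ranges overlapped. With coding length in place of exon length Adra2b ranked above Ddc in both strains.

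The summed level of the 10 proximal tubule markers was lower in most BPH/2J mice. It ran from 9070 to 9531 CPM in treated BPH/2J and from 10261 to 10468 CPM in treated BPN/3J mice. With vehicle it ran from 6752 to 9593 CPM in BPH/2J and from 9175 to 10814 CPM in BPN/3J mice. In the averaged comparison 0 of the 10 markers were called higher and 4 lower (Fbp1, Cubn, Slc22a6 and Slc22a8), with a median log2 fold change of -0.33, where 10.4% of all tested genes were called lower. Per 1000 CPM of these markers, Ddc averaged 6.62 ± 1.38 CPM in BPH/2J and 9.66 ± 1.66 CPM in BPN/3J, and Adra2b averaged 7.72 ± 1.27 CPM in BPH/2J and 11.5 ± 1.94 CPM in BPN/3J (SD, n = 9 each). With the arms pooled, the ranges on this scale were 4.43 to 8.08 in BPH/2J and 7.76 to 12.7 in BPN/3J for Ddc. For Adra2b they were 5.93 to 9.61 in BPH/2J and 8.80 to 13.96 in BPN/3J, so both genes overlapped between the strains. Under Cmpd17b alone neither overlapped, with at most 8.08 in BPH/2J and at least 8.71 in BPN/3J for Ddc. For Adra2b these limits were 7.62 and 9.56. Under vehicle both overlapped, with at most 8.08 against at least 7.76 for Ddc and 9.61 against 8.80 for Adra2b. Maoa per 1000 CPM of the markers averaged 1.02 ± 0.293 CPM in BPH/2J and 0.627 ± 0.0915 CPM in BPN/3J. The part of tubule content in the strain differences was not tested. Among other lists, 6 of 9 vascular smooth muscle and pericyte genes and 4 of 5 podocyte genes were called higher in BPH/2J. These calls were in the averaged comparison, where 1 vascular gene (Lmod1) was called lower and 13.2% of all tested genes were called higher. Under vehicle 5 vascular genes were called higher and 1 lower, and 4 podocyte genes higher, beside 5.82% of all tested genes called higher. Under Cmpd17b only 1 vascular gene was called higher and 1 lower, and 1 podocyte gene higher, beside 5.71% of all tested genes called higher. The vascular sum ran from 123 to 286 CPM in treated BPH/2J and from 137 to 155 CPM in treated BPN/3J, and from 168 to 274 CPM in vehicle BPH/2J and from 104 to 139 CPM in vehicle BPN/3J mice. The podocyte sum ran from 119 to 261 CPM in treated BPH/2J and from 96.2 to 169.7 CPM in treated BPN/3J, and from 146 to 205 CPM in vehicle BPH/2J and from 88.3 to 113 CPM in vehicle BPN/3J mice. Of the 3 tested Schwann cell markers 2 were called higher on average and 1 in each arm. The Schwann cell sum ran from 6.11 to 13.1 CPM in treated BPH/2J and from 4.01 to 7.33 CPM in treated BPN/3J mice. With vehicle it ran from 6.80 to 13.7 CPM in BPH/2J and from 4.13 to 6.14 CPM in BPN/3J mice. In each of the remaining kidney tubule, endothelial, leukocyte, fat, adrenal cortex and urothelium lists, 0 to 2 genes were called. The part of these cell types in the results was not tested either.

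**Figure D3:**
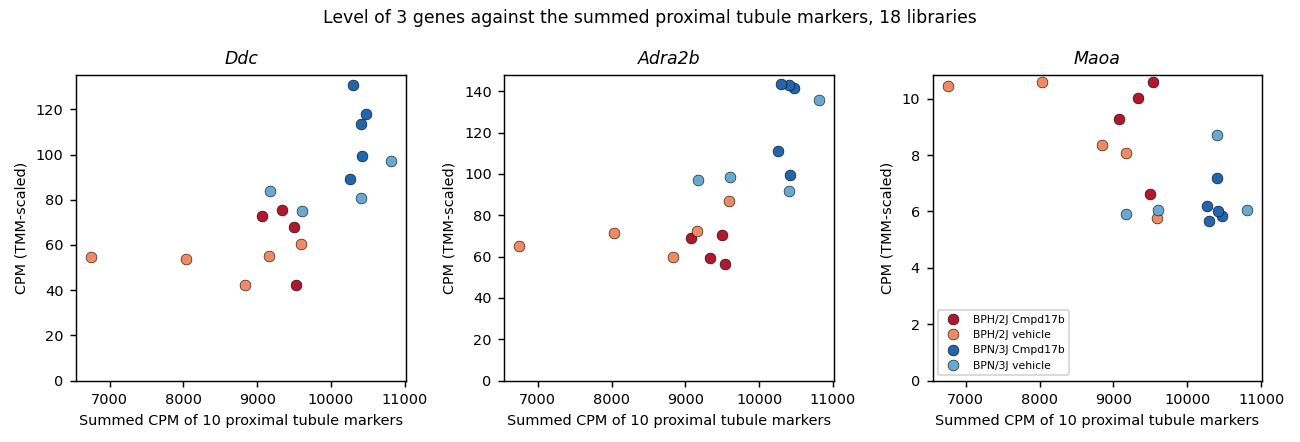
CPM of Ddc, Adra2b and Maoa (y axis, TMM-scaled) against the summed CPM of 10 proximal tubule markers (x axis, not from 0), 1 point per library. On the x axis the strains lie largely apart, with 1 BPN/3J library (9175 CPM) within the BPH/2J range of sums. On the y axis Ddc and Adra2b lie largely apart too, whereas Maoa overlaps. The part of tubule content in these differences was not tested.

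The effect of Cmpd17b asks whether treatment moved these genes within a strain. In BPH/2J, 0 of the 8 genes were called, where 0.164% of all tested genes were called, and in BPN/3J 0 of the 8, where 0.0% were called. DESeq2 called 0 of the 8 in both strains, where it called 0.25% of all genes in BPH/2J and 0.0365% in BPN/3J, and limma-voom 0 of the 8, where it called 0.207% and 0.0% of all genes in those strains. At an unadjusted p under 0.05 stood 1 of the 8 in BPH/2J (Adra1a) and 2 of the 8 in BPN/3J (Ddc and Adra1a), beside 3.7% and 2.53% of all tested genes in those strains. None of the 8 genes had treated and vehicle groups that did not overlap, where 0.932% of tested genes did in BPH/2J and 1.78% in BPN/3J. The strain comparisons and these comparisons share libraries.

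Adra1a had the smallest p of the 8 in BPH/2J. Its mean was 23.8 ± 4.77 CPM with Cmpd17b (SD, n = 4), against 16.6 ± 3.57 CPM with vehicle (SD, n = 5), and 3 of the 4 treated mice lay above all vehicle mice. The log2 fold change, Cmpd17b over vehicle, was 0.52 (SE 0.17, unadjusted p 0.00548 and adjusted p 0.927 in edgeR). In BPN/3J the mean of Adra1a was 28.05 ± 4.86 CPM with Cmpd17b (SD, n = 5), against 22.02 ± 1.85 CPM with vehicle (SD, n = 4), with 4 of the 5 treated mice above all vehicle mice and a log2 fold change of 0.35 (SE 0.17, edgeR adjusted p 1). Ddc had a mean of 110.3 ± 16.2 CPM with Cmpd17b, against 84.3 ± 9.39 CPM with vehicle, in BPN/3J, with a log2 fold change of 0.39 (SE 0.16, edgeR adjusted p 1). In BPH/2J the Ddc means were 64.6 ± 15.3 CPM with Cmpd17b, against 53.3 ± 6.71 CPM with vehicle, with a log2 fold change of 0.28 (SE 0.16, edgeR adjusted p 1). None of these 4 differences passed the test.

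The other genes had fitted Cmpd17b effects between -0.16 (Adra2b) and 0.33 (Adra1d) in BPH/2J, and between -0.19 (Adra1d) and 0.59 (Adra1b) in BPN/3J. For Adra2b the 95% interval of the log2 effect was -0.46 to 0.15 in BPH/2J and -0.03 to 0.58 in BPN/3J, and for Maoa it was -0.31 to 0.46 in BPH/2J and -0.50 to 0.27 in BPN/3J. The intervals of Adrb1 were wider, -0.64 to 0.72 in BPH/2J and -0.54 to 0.78 in BPN/3J. The interaction, the effect in BPH/2J minus that in BPN/3J, was called for 0 of the 8 genes, where 0.0304% of tested genes were called, and 0 of the 8 had an unadjusted p under 0.05, as against 3.22% of tested genes. DESeq2 and limma-voom called 0 of the 8 as well, where they called 0.0913% and 0.0426% of all genes. The interaction with the smallest p was that of Adra2b, at -0.43 (SE 0.21, unadjusted p 0.0513 and adjusted p 0.9999 in edgeR). The larger strain difference of Adra2b under Cmpd17b than under vehicle was thus not shown to differ between the arms.

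The other genes of the pathway were read from lists of 82 genes, of which 65 were tested. In the averaged strain comparison 7 were called higher and 7 lower in BPH/2J, or 21.5% of those tested beside 23.6% of all genes. In each arm 5 were called higher and 2 lower, or 10.8%, beside 10.4% of all genes under Cmpd17b and 10.8% under vehicle. The lists as a whole were thus near the background. Of the 65, 0 were called for Cmpd17b in either strain and 0 for the interaction. When 1 library was left out, the averaged count ran from 11, without BPN/3J vehicle replicate 1, to 16, the Cmpd17b count from 4, without BPH/2J Cmpd17b replicate 2, to 8, and the vehicle count from 3, without BPN/3J vehicle replicate 3, to 7.

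Adra2c and Adrb3, a further alpha-2 and a beta receptor, had low levels. Adra2c averaged 0.726 ± 0.311 CPM in BPH/2J and 0.756 ± 0.342 CPM in BPN/3J and was not called. Adrb3, the receptor of fat cells, reached 7.10 CPM in BPN/3J Cmpd17b replicate 1, whose fat cell markers, Adrb3 among them, summed to 114 CPM, and it was not called (edgeR adjusted p 0.0781).

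Transcripts of Th, Dbh and Pnmt, further enzymes of catecholamine synthesis, were at or near 0. Th, which encodes the rate-limiting enzyme of catecholamine synthesis, had 0 to 4 counts per library and was at 0 in 13 of 18, Dbh had 0 to 2 counts and was at 0 in 16, and Pnmt had 0 to 3 counts and was at 0 in 14. The noradrenaline transporter Slc6a2 had 0 to 4 counts. Nerve endings hold little mRNA, since their cell bodies lie outside the kidney. The dopamine receptors were also too low to test, with at most 7 counts of Drd1, 2 of Drd2, 39 of Drd3, 1 of Drd4 and 16 of Drd5 in any library. Ddc stood in these libraries beside almost no transcript of the enzymes before and after it in the noradrenaline pathway.

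In the synthesis and storage list, 1 of 7 tested genes was called in every strain comparison. Of all tested genes, 10.4% were called under Cmpd17b, 10.8% under vehicle and 23.6% on average. Qdpr, which regenerates the cofactor tetrahydrobiopterin, averaged 337 ± 47.5 CPM in BPH/2J and 225 ± 20.1 CPM in BPN/3J (SD, n = 9 each), with no overlap and an averaged log2 fold change of 0.59 (SE 0.09, edgeR adjusted p 7.51e-05). Slc18a1, a vesicular monoamine transporter, was at 103 ± 18.5 CPM in BPH/2J and 114 ± 17.04 CPM in BPN/3J and was not called. In the breakdown list 1 of 6 was called, on average only: Rnls, which encodes renalase, a flavoprotein secreted by the kidney, was lower at 4.48 ± 0.379 CPM in BPH/2J, against 5.55 ± 0.518 CPM in BPN/3J (log2 fold change -0.32, edgeR adjusted p 0.0140). Maob, the partner of Maoa, averaged 1.71 ± 0.580 CPM in BPH/2J and 2.16 ± 0.661 CPM in BPN/3J and was not called, with an averaged log2 fold change of -0.30 (edgeR adjusted p 0.355).

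In the transport list, 1 of 8 tested genes was called higher and 2 lower on average, where 13.2% of all tested genes were called higher and 10.4% lower. Slc22a2, an organic cation transporter, was higher at 275 ± 44.4 CPM in BPH/2J, against 213 ± 10.8 CPM in BPN/3J (log2 fold change 0.36, edgeR adjusted p 0.00513). Slc7a5, an amino acid carrier that takes up L-DOPA, was lower at 2.28 ± 1.24 CPM in BPH/2J, against 3.88 ± 1.37 CPM in BPN/3J (log2 fold change -0.83, edgeR adjusted p 0.0233), and was no longer called without BPN/3J vehicle replicate 1 or 3 (adjusted p up to 0.0555). In single arms only Slc22a2 was called, under Cmpd17b, and in 4 of 18 refits.

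Of 23 G protein and effector genes, 1 was called on average, 1 under vehicle and 0 under Cmpd17b. Of all tested genes, 23.6%, 10.8% and 10.4% were called in these comparisons. Gna14, a Gq-type alpha subunit, was lower at 13.8 ± 2.87 CPM in BPH/2J, against 19.4 ± 2.78 CPM in BPN/3J (averaged log2 fold change -0.48, edgeR adjusted p 0.00742). In the list of receptor kinases, arrestins and regulators, 3 of 13 were called higher in each arm. Under vehicle 1 was called lower, and under Cmpd17b 2 were. Of all tested genes, 5.71% to 5.82% were called higher and 4.65% to 4.94% lower in single arms. In the averaged comparison 4 of the 13 were called higher and 3 lower, where 13.2% of all tested genes were called higher and 10.4% lower. Rgs5, a regulator of G protein signalling that is typical of pericytes and also one of the vascular markers above, averaged 45.6 ± 12.1 CPM in BPH/2J and 17.5 ± 3.02 CPM in BPN/3J without overlap (log2 fold change 1.37, edgeR adjusted p 1.46e-06). Arrb1, an arrestin that uncouples receptors, was higher at 45.7 ± 5.003 CPM in BPH/2J, against 29.5 ± 5.16 CPM in BPN/3J (log2 fold change 0.66, edgeR adjusted p 1.77e-05). Rgs14 and Rgs4 were lower, with log2 fold changes of -0.97 and -0.49 (edgeR adjusted p 0.000247 and 0.0156). The receptor kinases Grk4 and Grk5 (0.42 and 0.32) were also called higher and Snx27 (-0.52) lower, Grk5 in 5 and Snx27 in 10 of 18 refits without 1 library. Rgs5 and Arrb1 were called in both arms in all 18 refits.

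**Figure D4:**
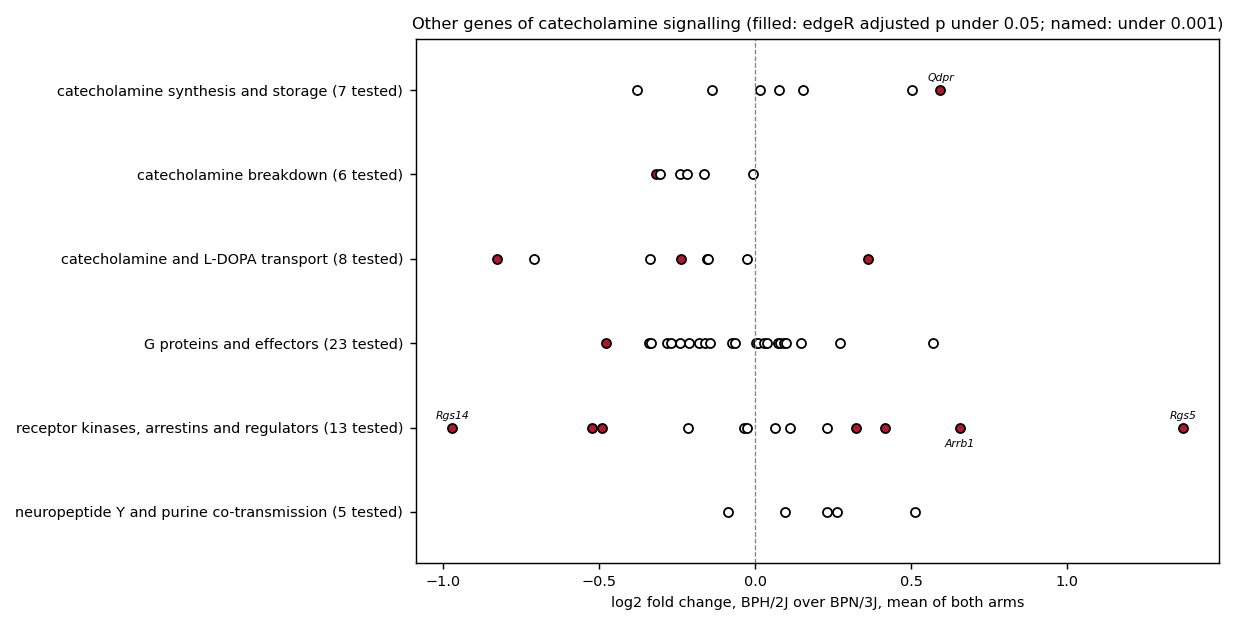
Averaged log2 fold change, BPH/2J over BPN/3J (x axis), of the 62 tested genes of 6 pathway lists (rows), 1 point per gene; filled points had an edgeR adjusted p under 0.05, and named points one under 0.001. Called genes lie on both sides of 0, from Rgs14 at -0.97 to Rgs5 at 1.37.

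Genes whose pattern was most like each of the 8 were ranked by Pearson's r of log2 CPM over the 18 libraries, among 11602 genes (11603 for members with a lower mean). These values share the strain difference and the libraries and are given as a description. Ddc was most like Clpx (r = 0.96), Fmo1 (0.93) and Degs1 (0.92), and Adra2b like Sbk1 (0.94), Manba (0.93) and Stra6l (0.93). Adrb1 was most like Scly (0.95), Ppt1 (0.95) and Dhrs1 (0.95), and Adra1a like Snx29 (0.91), Acss1 (0.91) and Slc2a12 (0.91). Adra2a followed Foxp4 (0.93), Syne4 (0.91) and Rgs11 (0.90), and Maoa followed Tgfb2 (0.85), Lrrc49 (0.84) and Efnb2 (0.82). Adra1b followed Vstm4 (0.83), Pmp22 (0.78) and Zbtb46 (0.77), whereas Adra1d, the gene with the fewest counts, followed Fam220a (0.82) and then only Kif2a (0.62) and Mcu (0.60). Within the 9 BPH/2J and the 9 BPN/3J libraries, r with these 3 genes was 0.79 to 0.90 and 0.73 to 0.86 for Ddc, 0.60 to 0.66 and 0.80 to 0.87 for Adra2b, 0.95 to 0.98 and 0.72 to 0.84 for Adrb1, and 0.86 to 0.93 and 0.76 to 0.93 for Adra1a. It was 0.77 to 0.91 in BPH/2J and 0.42 to 0.61 in BPN/3J for Maoa, 0.61 to 0.89 and 0.76 to 0.83 for Adra1b, and 0.54 to 0.88 and 0.18 to 0.82 for Adra1d. For Adra2a it was 0.88 to 0.95 in BPH/2J but 0.59 (Foxp4), 0.44 (Rgs11) and 0.091 (Syne4) in BPN/3J. None of these 3 genes thus reached its pooled value within BPN/3J. The BPH/2J libraries include BPH/2J Cmpd17b replicate 5, with Adra2a at 3.81 CPM. Between members, r of Ddc and Adra2b was 0.88 over all 18 libraries, 0.34 within the 9 BPH/2J and 0.86 within the 9 BPN/3J libraries.

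The library that was left out, labelled BPH/2J Cmpd17b replicate 1, lay outside the range of the other 18 in 7 of the 8 genes. On raw library totals Adra1b stood at 26.2 CPM in it, against 0.526 to 1.81 CPM in the other 18, and Adrb1 at 21.001 CPM, against 0.748 to 4.45 CPM. Adra1a was at 71.3 CPM, against 12.5 to 37.0 CPM, and Adra1d at 1.91 CPM, against 0.193 to 1.03 CPM. Ddc was at 0.743 CPM, against 34.2 to 139 CPM, Adra2b at 0.872 CPM, against 45.8 to 152 CPM, and Adra2a at 0.0646 CPM, against 0.727 to 3.08 CPM. Maoa alone lay within the others' range, at 6.56 CPM. In the heart, Adra1a, Adra1b and Adrb1 are the main adrenergic receptors of muscle cells, and the heart muscle markers of this library summed to 68075 CPM. In the 4 treated BPH/2J libraries of the fit the heart markers reached 0.188% to 0.223% of that sum, and the highest of these shares of its levels comes to 0.159 CPM of Adra1a, 0.0585 CPM of Adra1b and 0.0469 CPM of Adrb1. The lowest values of those genes in the 4 libraries were 14.5, 0.748 and 0.748 CPM on the same scale. These shares take any heart RNA to have the profile of the left-out library. The part of heart RNA in the group differences was not tested. With this library in the fit, 0 of the 8 genes were called between the strains under Cmpd17b, 0 under vehicle and 1 on average, where 8.75%, 3.43% and 14.5% of all tested genes were called.

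**Figure D5:**
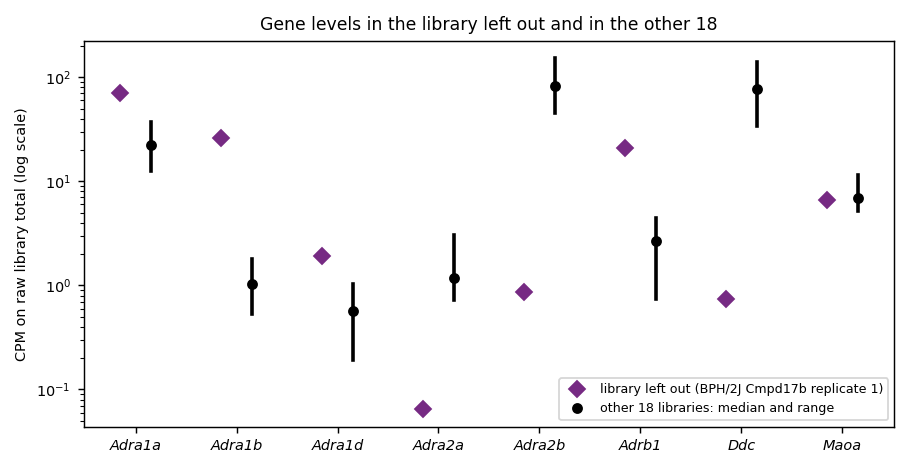
CPM on raw library totals (log scale) of the 8 genes in the library left out, BPH/2J Cmpd17b replicate 1 (diamonds), and the median and range of the other 18 libraries (dots and lines). Adra1a, Adra1b, Adra1d and Adrb1 lie above the range and Adra2a, Adra2b and Ddc below it.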

How the data were processed

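Polyadenylated kidney RNA of 19 mice was sequenced, all with batch label 2. The authors deposited estimated counts per gene, of which 4.63% to 10.1% of all values in a library, zeros included, were not whole. Per the submitters' processing notes, Trim Galore 0.6.7 trimmed the reads, STAR 2.7.9a aligned them, and mm39 was the genome build. The sources used here do not name a counting tool, a strand setting or an annotation, so reads of overlapping antisense genes cannot be told apart.

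Counts were rounded and tested with edgeR 4.0.16 (quasi-likelihood, robust fit, TMM factors, filterByExpr with a minimum count of 10 and a minimum total of 15) in R 4.3.3. All 4 groups, 18 libraries, entered 1 fit with no covariate. A gene was called at a Benjamini-Hochberg adjusted p under 0.05 over 16421 genes. The standard error is the log2 fold change over the root of F, and intervals are 95%. Alternatives were DESeq2 1.42.0, limma-voom (limma 3.58.1), other scalings and filters, a fit of the compared groups alone, a non-robust fit, all 19 libraries, and leaving out each library. The test was also run on counts simulated from the fit's own estimates of level and spread. Changes were put only into genes with a mean above 1 CPM, and no result here rests on that run. The simulated libraries held no mitochondrial or heart marker differences, so that run does not bear on these.

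The 8 genes, the 8 pathway lists and the marker lists were chosen with earlier results of these data known. Named pathway genes are up to 4 called per list and comparison by smallest p, and other named genes were chosen with their values in view. Likeness named the top 3 genes among those whose mean log2 CPM reached 1. Labels give each mouse its own code and no pairing. The p-values set a difference between groups against the spread between these mice within groups. Lengths (GENCODE) and neighbours and promoter windows (RefSeq, GRCm38.p6) come from an earlier build, and only the windows' coordinates are given. 2 of the 8 genes, Adra1a and Adra1d, have no window. Some genes of the pathway lists are counted but not reported by name here. Python 3.11.15 and matplotlib 3.10.9 drew the figures.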

Additional observations from a re-analysis of the deposited data

Results flagged for a closer look

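In 3 of 32 checks of a gene in a group, 1 library stood far from the others by Dixon's gap test, which chance gives in about 1 of 20 such checks. Adra2a was at 3.81 CPM in BPH/2J Cmpd17b replicate 5, where the other 3 treated BPH/2J mice were at 0.779 to 1.17 CPM. Adra2b was at 136 CPM in BPN/3J vehicle replicate 2, where the other 3 of its group were at 91.6 to 98.4 CPM. Maoa was at 8.71 CPM in BPN/3J vehicle replicate 4, where the other 3 were at 5.92 to 6.05 CPM.

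The library labelled BPH/2J Cmpd17b replicate 1, which the comparisons did not use, had 4 receptor genes above every vehicle library on raw totals. Adra1a was at 71.3 CPM there, against 12.5 to 25.8 CPM in the 9 vehicle libraries, and Adra1b at 26.2 CPM, against 0.526 to 1.81 CPM. Adra1d was at 1.91 CPM, against 0.193 to 1.03 CPM, and Adrb1 at 21.001 CPM, against 0.826 to 4.45 CPM.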

How the results depend on the processing

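With all 19 libraries in the fit, 0 of the 8 genes were called between the strains under Cmpd17b, 0 under vehicle and 1 on average (Maoa, 0.46, edgeR adjusted p 0.0258). The strain differences of Adra1a (0.43), Adra1b (2.79) and Adrb1 (1.13) under Cmpd17b, and of Adra1a (0.0087), Adra1d (0.17) and Adrb1 (0.26) on average, then changed sign, as did the Cmpd17b effects of Adra1b (2.67) and Ddc (-0.037) in BPH/2J and the interactions of Adra1b (2.08), Adra2a (-0.23) and Adrb1 (1.74). With 18 libraries, DESeq2, limma-voom, other scalings and filters, the compared groups alone and the fit that is not robust gave 2 or 3 called genes under Cmpd17b, 2 under vehicle and 4 to 6 on average, 0 for Cmpd17b and 0 for the interaction. The 3 under Cmpd17b and a count of 6 on average came from DESeq2, which called Maoa and Adra1a as well. Ddc and Adra2b were called in both arms in each of these. Signs changed only for Adra1b under Cmpd17b, to 0.012 with upper-quartile scaling and to 0.0031 with a filter of 1 CPM in 4 libraries, and for the interaction of Adra2a in limma-voom (-0.25). The cause was not tested. Adra1d had no value under the filter of 1 CPM.

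Leaving out 1 library at a time, the genes called between the strains numbered 2 to 3 under Cmpd17b, 1 to 3 under vehicle and 3 to 6 on average. The 1 under vehicle was without BPN/3J vehicle replicate 2, and the 3 on average without BPH/2J Cmpd17b replicate 5, where Adrb1 was at -0.53 (adjusted p 0.0770) and Adra2a at 0.49. Log2 values near 0 changed sign in some of these refits. They ranged from -0.14 to 0.12 for Adra1b and from -0.071 to 0.29 for Adra1d between strains under Cmpd17b. For the Cmpd17b effect in BPH/2J they ranged from -0.27 to 0.017 for Adra1b, from -0.81 to 0.15 for Adra2a, from -0.13 to 0.26 for Adrb1 and from -0.040 to 0.20 for Maoa. For that in BPN/3J they ranged from -0.39 to 0.040 for Adra1d, from -0.025 to 0.33 for Adrb1 and from -0.17 to 0.041 for Maoa, and for the interaction from -0.64 to 0.32 for Adra2a, from -0.29 to 0.14 for Adrb1 and from -0.19 to 0.049 for Ddc. CPM on raw totals or on DESeq2 size factors moved all 32 group means by less than 1 SD. No paired analysis was possible because the labels give no replicate number that groups share. Depth limits Adra1b, Adra1d, Adra2a and Adrb1, whose lowest library had 15, 5, 20 and 16 counts.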

Other observations

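Receptors for the sympathetic co-transmitters neuropeptide Y and ATP, and for adenosine, were measured beside the adrenergic ones. Of 8 listed genes, these receptors and neuropeptide Y, 5 were tested and 0 were called between the strains, on average or in either arm. Of all tested genes, 23.6% were called on average, 10.4% under Cmpd17b and 10.8% under vehicle. Npy1r, the Y1 receptor of vessels, averaged 1.10 ± 0.421 CPM in BPH/2J and 0.759 ± 0.295 CPM in BPN/3J (SD, n = 9 each, log2 fold change 0.51, edgeR adjusted p 0.150). P2rx1, an ATP-gated channel of smooth muscle, averaged 2.27 ± 0.833 CPM in BPH/2J and 2.10 ± 0.549 CPM in BPN/3J (edgeR adjusted p 0.779). Adora1, the A1 adenosine receptor, averaged 5.24 ± 2.53 CPM in BPH/2J and 4.39 ± 2.23 CPM in BPN/3J (edgeR adjusted p 0.588). The transcript of neuropeptide Y itself had 0 to 28 counts per library and was not tested.

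The 3 tested genes on each side of the 8 genes along their chromosomes, 48 in all, were read in the averaged strain comparison. Of these 13 were called, or 27.1%, beside 23.6% of all tested genes. Around Adra2b on chromosome 2, Tmem127 (log2 fold change -0.22, edgeR adjusted p 0.00412) and Stard7 (-0.33, edgeR adjusted p 0.000199) were lower and the predicted gene Gm39923 (1.59, edgeR adjusted p 0.00262) was higher in BPH/2J. Around Ddc on chromosome 11, Ikzf1 (-0.87, edgeR adjusted p 0.0272) and Cobl (-0.24, edgeR adjusted p 0.0466) were lower and the predicted gene LOC102631979 (1.63, edgeR adjusted p 0.00636) was higher. Of the 6 neighbours of Maoa on the X chromosome, 0 were called, and Maob was among them. Beside Adra2a on chromosome 19, Acsl5 was lower (-0.68, edgeR adjusted p 2.43e-05).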
